A study of Homo sapiens with 6 samples.

Results

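A set of 10 genes that dampen or read out ERK signalling were followed through RNA sequencing of U87-MG cells: the Sprouty genes SPRY1, SPRY2 and SPRY4, the Sprouty-related genes SPRED1 and SPRED2, the phosphatase genes DUSP4, DUSP5 and DUSP6, and the transcription factor genes ETV4 and ETV5. They were taken by symbol from the deposited table, which holds 10 of 10 of them among 61806 genes. U87-MG is an established human glioblastoma line, and all 6 libraries came from it. A group of 3 libraries is the negative control (NC, labelled wildtype), and the other 3 are labelled GRIK1 siRNA, with GRIK1 knockdown as their genotype. The methods describe transfected siRNA and the deposited design an shRNA. The study describes several siRNA sequences, of which the first was taken on for later experiments, while the titles number the libraries siRNA1 to siRNA3. The labels do not say whether the numbers 1 to 3 mark separate cultures or siRNA sequences, so p-values measure only the spread between these libraries, which may be technical.

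ERK is the last kinase of the RAS, RAF and MEK cascade, through which growth factor receptors drive division and migration. Active ERK switches on its own brakes. Sprouty and SPRED proteins act upstream at the receptor and at RAS, and dual specificity phosphatases (DUSP) take the activating phosphates off ERK itself. The PEA3 group of ETS transcription factors, ETV1, ETV4 and ETV5, carries the signal to genes of growth and invasion. RNA levels of these genes are widely read as a record of ERK activity, and receptor and RAS signalling is often raised in glioblastoma.

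GRIK1, the targeted gene, had 18, 9 and 8 counts in NC libraries 1, 2 and 3, while the libraries labelled GRIK1 siRNA (the siRNA-labelled libraries) had 15, 20 and 20. It was at 1.49 times its NC level after scaling to total counts (exact 95% confidence interval 0.958 to 2.35, counting error only). The study reports an efficient GRIK1 knockdown in U87-MG cells from measurements other than these counts. Since the targeted gene was not lower in these counts, the second group is called by its label throughout. Total counts lay between 11099909 and 14006968. NC library 3 stood apart, with 9.38% of its counts on ribosomal protein genes, against 5.24% and 5.51% in NC libraries 1 and 2 and 4.80% to 4.86% in the siRNA-labelled libraries. Genes with a count numbered 23902 to 24993 in NC and 26134 to 27049 in the siRNA-labelled libraries, and the part of this difference in the results below was not tested. The common dispersion of edgeR, a measure of the spread between libraries of a group, was 0.0391 with this library and 0.00298 without it, so results are given both ways. The 6 glial and neural markers, GFAP, S100B, AQP4, SOX2, OLIG2 and NES, stayed at or under 0.83 FPKM in every library, with AQP4 at 0, so the labelled glioma identity did not show in them. GFAP, below the filter, had 13, 11 and 8 counts in NC, against 39, 36 and 38 in the siRNA-labelled libraries, and rose in the edgeR fit without a filter (log2 fold change 1.61, adjusted p = 0.0109). The others did not rise with it in a called way. NES was at 0.11 in that fit (adjusted p = 0.874), and OLIG2 was at 0.09 in the edgeR fit with the filter (adjusted p = 0.882). S100B and SOX2 had at most 4 counts in any library. The mesenchymal markers VIM, CD44, COL1A1 and TIMP1 summed to 1118 to 1657 FPKM in NC and to 1767 to 1907 FPKM in the siRNA-labelled libraries, and their part in the results below was not tested. The members of that list did not move alike, with log2 fold changes of 1.70 for COL1A1, 0.40 for TIMP1, -0.02 for VIM and -0.19 for CD44, none of them called with all 6 libraries. COL1A1 (1.31) and TIMP1 (0.20) were called as higher and CD44 (-0.28) as lower without NC library 3. CDKN2A, CDKN2B and MTAP, which U87-MG is known to have lost, did not exceed 0.04 FPKM.

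Levels of different genes were compared as FPKM, the reads per kilobase of exons, after division by the counted reads of that library. In the NC libraries DUSP6 was the most abundant of the 10 genes, at 20.5 ± 4.10 FPKM (SD, n = 3). SPRED1 followed with 13.8 ± 0.869 FPKM, SPRED2 with 11.0 ± 2.72, ETV5 with 10.1 ± 0.684 and SPRY2 with 9.69 ± 0.386. The ranges of neighbours from SPRED1 down to SPRY2 overlapped. DUSP5 had 8.40 ± 0.737 FPKM, DUSP4 4.97 ± 0.465 and ETV4 4.35 ± 0.673, the last 2 with overlapping ranges. SPRY4 was lower, at 1.49 ± 0.471 FPKM, and SPRY1 was at 0.173 ± 0.0709 FPKM. In the libraries labelled GRIK1 siRNA the order was the same but for SPRED2, which came before SPRED1, and ETV4 and SPRY4 no longer had separate ranges (2.35 ± 0.197 and 2.27 ± 0.339 FPKM).

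**Figure D1:**
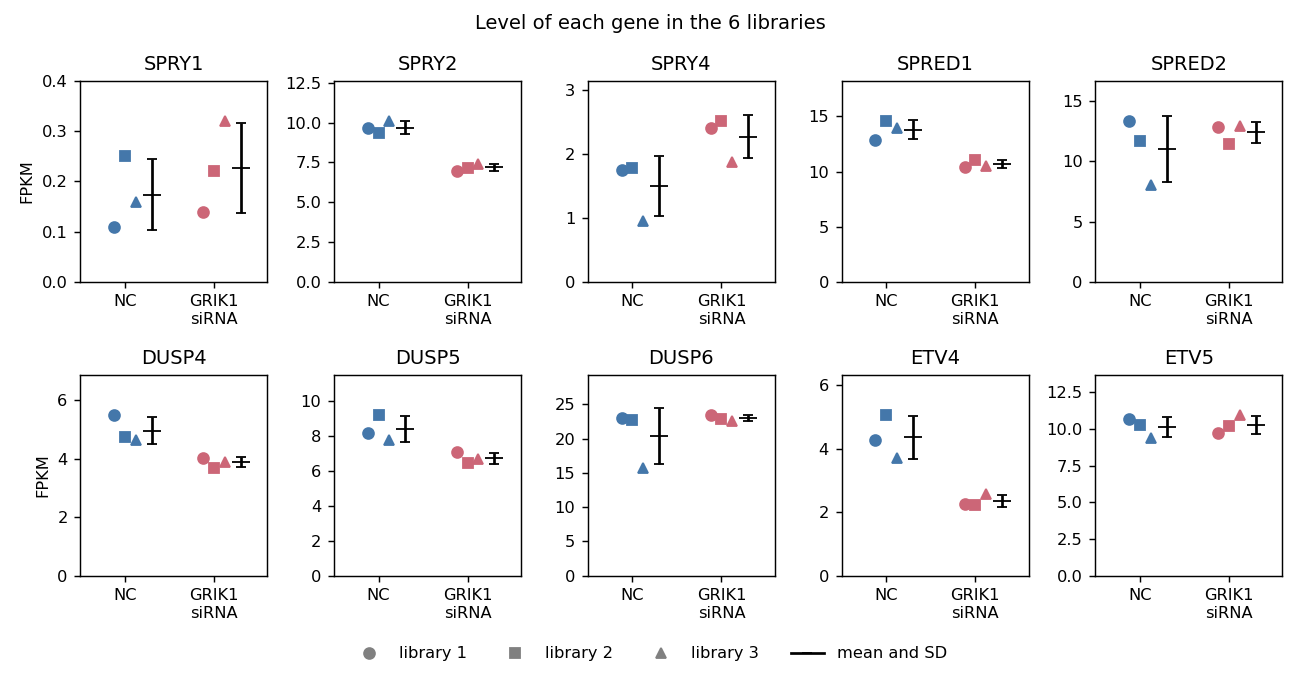
FPKM of each of the 10 genes (vertical axes, starting at 0, with a scale of their own) in the 3 NC libraries and the 3 libraries labelled GRIK1 siRNA. Symbols mark library 1, 2 and 3, and the black marks give the mean and SD. The NC libraries lie above the others for SPRY2, SPRED1, DUSP4, DUSP5 and ETV4, and below them for SPRY4.

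Between the groups, ETV4 was the gene of the 10 that passed the test, and it fell. Counts were compared with the quasi-likelihood test of edgeR on the 15870 genes that averaged 0.5 FPKM or more, and a gene was called at a Benjamini-Hochberg adjusted p under 0.05. Over all tested genes 3.09% were called, 1.48% as lower and 1.61% as higher. SPRY1, with a mean of 0.20 FPKM, was below the filter, which left 9 genes. The called gene was 1 of these 9. The median log2 fold change of the 9 was -0.40, against -0.02 over all tested genes. In bulk RNA, fewer expressing cells and less RNA per cell cannot be told apart. The groups did not overlap, with the NC libraries higher, for 5 of the 9 (19.0% of all tested genes) and with the NC libraries lower for 1 of the 9 (19.4%), where 38.5% of all tested genes did not overlap in either direction. At an adjusted p under 0.1, 4 of the 9 genes passed, against 9.30% of all tested genes. Without NC library 3, the 5 lower genes, ETV4, SPRY2, SPRED1, DUSP4 and DUSP5, were called and no higher gene was, where 18.3% of all tested genes were called as lower and 35.2% in either direction.

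**Figure D2:**
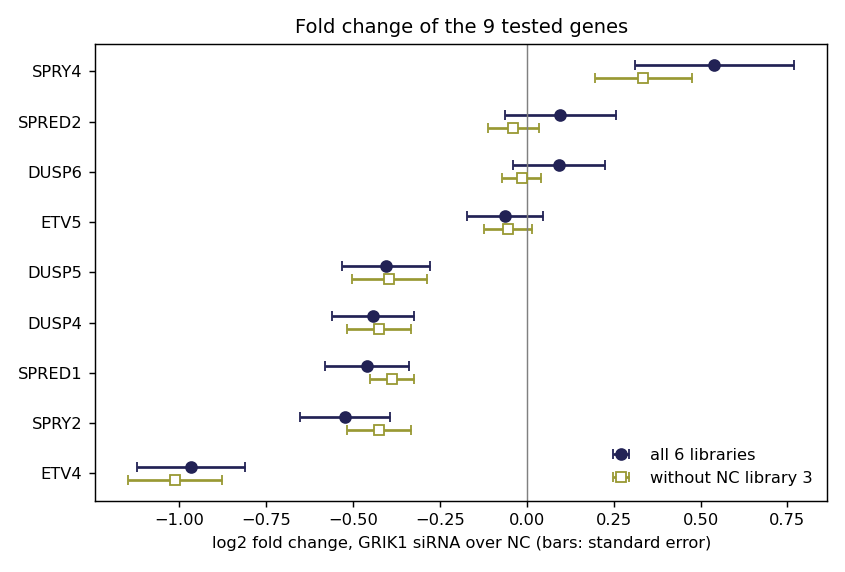
Log2 fold change of the libraries labelled GRIK1 siRNA over the NC libraries (horizontal axis) for the 9 tested genes, with bars for the standard error. Filled circles use all 6 libraries and open squares leave out NC library 3. ETV4 lies near -1 in both fits, SPRY2, SPRED1, DUSP4 and DUSP5 lie between -0.52 and -0.39, and ETV5, DUSP6 and SPRED2 lie within 0.10 of 0.

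ETV4 (ENSG00000175832, chromosome 17 from 43527844 to 43579620 in GRCh38) encodes a PEA3 factor that promotes invasion genes in many tumours. It had 4.28, 5.06 and 3.72 FPKM in NC libraries 1, 2 and 3, against 2.25, 2.23 and 2.58 FPKM in the siRNA-labelled libraries 1, 2 and 3. All 3 NC libraries were above all 3 of the others. The log2 fold change was -0.97 (standard error, SE, 0.16; edgeR adjusted p = 0.0320), or 51.2% of the NC level. Without NC library 3 it was -1.01 (edgeR adjusted p = 1.70e-05). When any of the other 5 libraries was left out, the log2 fold change stayed between -1.04 and -0.87, but the adjusted p was between 0.0697 and 0.223 and the call was lost, as it was for every gene in those fits, where 0 genes passed and between 2238 and 4434 had an unadjusted p under 0.05. The call was also lost in limma-trend with pseudocounts of 1 and 0.1 (adjusted p = 0.05001 and 0.0535) and with the replicate number as a block in edgeR (adjusted p = 0.0977).

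ETV5 (ENSG00000244405, chromosome 3 from 186046314 to 186110318), the paralog of ETV4, had 10.7, 10.3 and 9.37 FPKM in NC, against 9.72, 10.2 and 11.0 FPKM in the siRNA-labelled libraries. The groups overlapped. Its log2 fold change was -0.06 (SE 0.11, edgeR adjusted p = 0.745). With libraries scaled by their totals alone it turned to 0.025. ETV1, the third PEA3 gene, is not among the 10 but behaved like ETV4 in direction. It had 15.0, 15.2 and 16.8 FPKM in NC, against 10.4, 10.5 and 10.5 FPKM in the siRNA-labelled libraries, with a log2 fold change of -0.68 (SE 0.13, edgeR adjusted p = 0.0443), and -0.55 without NC library 3. Its call was lost, as for ETV4, when any of the other 5 libraries was left out. ETV1 and ETV4 thus fell with all 6 libraries, while ETV5 was at 95.8% of its NC level.

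SPRY2 (ENSG00000136158, chromosome 13 from 80335976 to 80341126) encodes the Sprouty protein that binds GRB2 and CBL after receptor activation. It had 9.65, 9.32 and 10.1 FPKM in NC, against 6.96, 7.18 and 7.42 FPKM in the siRNA-labelled libraries, so each NC library was higher. The log2 fold change was -0.52 (SE 0.13, edgeR adjusted p = 0.0744), and without NC library 3 it was -0.42 (adjusted p = 0.00161). DESeq2 with all 6 libraries called SPRY2 (adjusted p = 0.0235), where it called 10.6% of all tested genes.

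SPRY4 (ENSG00000187678, chromosome 5 from 142310427 to 142326455), another inhibitor of the path from receptor to ERK, lay in the opposite direction. It had 1.75, 1.78 and 0.95 FPKM in NC, against 2.41, 2.51 and 1.88 FPKM in the siRNA-labelled libraries, from counts of 87 to 208, and the groups did not overlap. The log2 fold change was 0.54 (SE 0.23, edgeR adjusted p = 0.196), and 0.34 without NC library 3 (adjusted p = 0.0705), so SPRY4 did not pass in either fit. NC library 3 had the lowest value, and the log2 fold change without it was lower than in the other 5 fits that left out a library.

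SPRY1 (ENSG00000164056, chromosome 4 from 123396795 to 123403760) was close to the limit of what these libraries can measure. It had 5, 11 and 9 counts in NC, against 7, 11 and 17 in the siRNA-labelled libraries. The summed counts gave a ratio of 1.33 to the NC level (exact 95% confidence interval 0.772 to 2.31, counting error only), so a difference was not detectable at this depth.

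RefSeq promoter windows on GRCh38.p14 were at hand for SPRY1, SPRY2, SPRY4, SPRED1, SPRED2 and DUSP6, which is 6 of the 10 genes. The windows of SPRY2, SPRY4 and DUSP6 are shown because these genes lay lower, higher and level between the groups. Each line is the 250 bases before an annotated start, on the gene's strand from 5′ to 3′, at chr13:80341127-80341376 for SPRY2, chr5:142324248-142324497 for SPRY4 and chr12:89352502-89352751 for DUSP6, all on the minus strand. Capitals mark CGGAA, a form of the site that ETS factors recognise, or its reverse complement TTCCG. The shorter ETS core GGAA was not searched, and the SPRY4 window holds it, so 0 matches below do not mean that the core is absent.
SPRY2: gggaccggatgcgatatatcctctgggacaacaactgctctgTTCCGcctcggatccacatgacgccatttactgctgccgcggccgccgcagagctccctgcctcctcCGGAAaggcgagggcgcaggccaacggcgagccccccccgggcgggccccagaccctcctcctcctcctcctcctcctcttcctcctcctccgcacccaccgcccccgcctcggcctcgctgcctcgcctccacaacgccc
SPRY4: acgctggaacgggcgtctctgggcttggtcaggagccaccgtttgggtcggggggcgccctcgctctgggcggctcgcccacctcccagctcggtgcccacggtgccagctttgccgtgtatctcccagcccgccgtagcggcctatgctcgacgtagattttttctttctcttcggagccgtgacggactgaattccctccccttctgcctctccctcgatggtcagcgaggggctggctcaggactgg
DUSP6: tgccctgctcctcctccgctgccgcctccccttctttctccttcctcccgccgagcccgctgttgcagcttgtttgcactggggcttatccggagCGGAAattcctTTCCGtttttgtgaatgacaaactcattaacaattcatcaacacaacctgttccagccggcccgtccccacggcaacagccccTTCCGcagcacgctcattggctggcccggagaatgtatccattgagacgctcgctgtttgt
The SPRY2 window held CGGAA or TTCCG at 2 places and the DUSP6 window at 3, and the SPRY4 window held 0. The other windows of SPRY2 and the windows of SPRED1 and SPRED2 also held 0, and 1 of the 2 windows of SPRY1 held 1. Of all 35116 windows of this length, 30.3% held CGGAA on either strand. The start of the SPRY4 window is not the start of SPRY4 in the deposited table, while the starts of SPRY2 and DUSP6 are the same there. The longer letters CCGGAAGT (ETS, in 3.42% of windows), TGAATGAA and TGAATGGA (capicua, 1.40% and 0.832%), TGAGTCA (AP-1, 4.20%) and TGACGTCA (cyclic AMP response element, 1.65%) were searched on both strands and had 0 matches in the 10 windows of the 6 genes, several of which have more than 1 start.

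SPRED1 (ENSG00000166068, chromosome 15 from 38252836 to 38357249) encodes the protein that brings the RAS inactivator neurofibromin to the membrane. It had 12.9, 14.6 and 13.9 FPKM in NC, against 10.4, 11.1 and 10.5 FPKM in the siRNA-labelled libraries, again with each NC library higher. The log2 fold change was -0.46 (SE 0.12, edgeR adjusted p = 0.0837), and -0.39 without NC library 3 (adjusted p = 0.000144). DESeq2 with all 6 libraries also called SPRED1 (adjusted p = 0.0242). SPRED2 (ENSG00000198369, chromosome 2 from 65310851 to 65432637), its paralog, had 13.4, 11.7 and 8.05 FPKM in NC, against 12.9, 11.4 and 12.95 FPKM in the siRNA-labelled libraries. The groups overlapped, and NC library 3 was the lowest. Its log2 fold change was 0.10 (SE 0.16, edgeR adjusted p = 0.726), and it turned to -0.04 without NC library 3.

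DUSP4 (ENSG00000120875, chromosome 8 from 29333064 to 29350684) and DUSP5 (ENSG00000138166, chromosome 10 from 110497907 to 110511533) encode phosphatases of the nucleus. DUSP4 had 5.50, 4.75 and 4.65 FPKM in NC, against 4.04, 3.70 and 3.90 FPKM in the siRNA-labelled libraries. DUSP5 had 8.17, 9.22 and 7.80 FPKM in NC, against 7.07, 6.44 and 6.69 FPKM in the siRNA-labelled libraries. Neither gene had overlapping groups. The log2 fold change of DUSP4 was -0.44 (SE 0.12, edgeR adjusted p = 0.0852), and without NC library 3 it was -0.43 (adjusted p = 0.00158). That of DUSP5 was -0.40 (SE 0.13, edgeR adjusted p = 0.113), and without NC library 3 it was also -0.40 (adjusted p = 0.00794). DESeq2 with all 6 libraries called DUSP4 (adjusted p = 0.0358) but not DUSP5 (adjusted p = 0.0912).

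DUSP6 (ENSG00000139318, chromosome 12 from 89347235 to 89352501), the ERK phosphatase of the cytoplasm and the most abundant of the 10 genes, had 23.0, 22.7 and 15.7 FPKM in NC, against 23.5, 22.9 and 22.6 FPKM in the siRNA-labelled libraries. NC library 3 was low and the other 5 lay together. The log2 fold change was 0.09 (SE 0.13, edgeR adjusted p = 0.680), and -0.01 without NC library 3 (SE 0.06). In that fit DUSP6 had the smallest absolute log2 fold change of the 9 genes.

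Ratios of 2 family members inside the same library do not depend on how libraries are scaled. The 5 pairs were picked after the values were seen, so their ratios are a description with no test. ETV4 had 0.243, 0.30 and 0.241 reads per ETV5 read in NC, against 0.141, 0.134 and 0.144 in the siRNA-labelled libraries, a log2 difference of -0.90. Without NC library 3 that difference was -0.96. SPRY2 had 2.71, 2.56 and 5.22 reads per SPRY4 read in NC, against 1.41, 1.40 and 1.93 in the siRNA-labelled libraries, a log2 difference of -1.08 that was -0.75 without NC library 3. In these 2 pairs and in DUSP4 and DUSP5 over DUSP6 the groups did not overlap. The DUSP4 to DUSP6 ratio had a log2 difference of -0.54 and the DUSP5 to DUSP6 ratio one of -0.51. Without NC library 3 these differences were -0.41 and -0.38. For SPRED1 over SPRED2 the groups overlapped, with a log2 difference of -0.57 that was -0.34 without NC library 3.

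**Figure D3:**
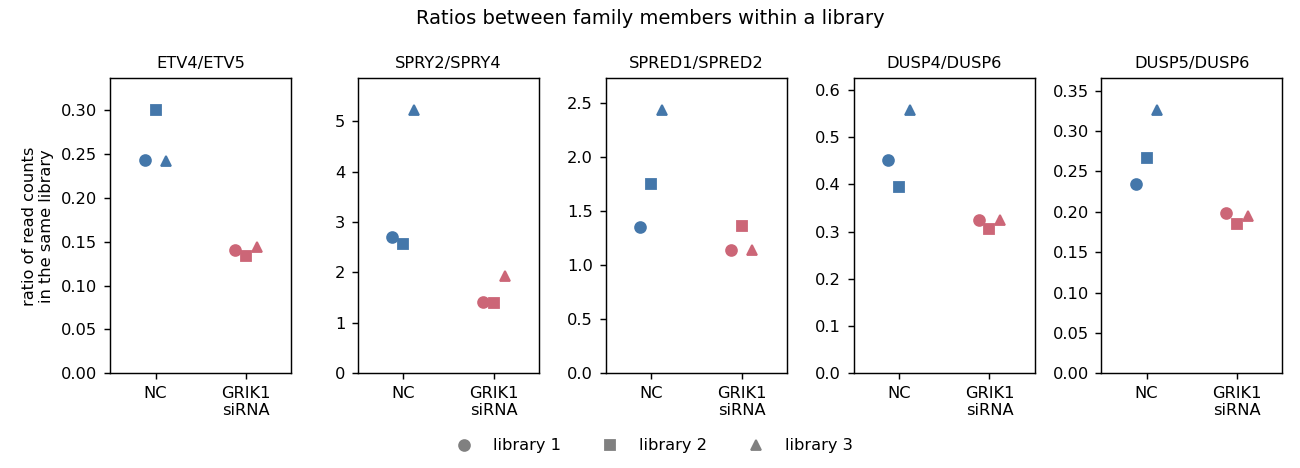
Ratio of the read counts of 2 genes in the same library (vertical axes, starting at 0, with a scale of their own) for 5 pairs, by group, with symbols for library 1, 2 and 3. The ETV4 to ETV5 ratio lies from 0.241 to 0.30 under NC and from 0.134 to 0.144 in the siRNA-labelled libraries, and NC library 3 has the highest ratio of the other 4 pairs.

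The profiles of the 9 tested genes over the 6 libraries were compared as log2 CPM, as a description, since the libraries form groups and NC library 3 stands apart. The gene most like ETV4 was DUSP5 (Pearson r = 0.96, n = 6 libraries), and the gene most like SPRY2 was SPRED1 (r = 0.95). DUSP6 was most like SPRED2 (r = 0.90), and SPRY4 was most like DUSP6 (r = 0.86). Without NC library 3 the likeness of DUSP6 and SPRY4 was gone (r = -0.03, n = 5 libraries), DUSP6 was most like DUSP5 (r = 0.58) and SPRED2 most like DUSP4 (r = 0.52), while SPRY2 and ETV4 were alike (r = 0.97).

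The rest of the pathway was read from the same fit in 4 lists, which do not hold the 10 genes. Of 12 other family members, 8 were tested, ETV1 fell and 0 rose (1.48% and 1.61% of all tested genes), with a median log2 fold change of 0.02. DUSP3, a phosphatase of ERK and JNK, had a log2 fold change of -0.57 (edgeR adjusted p = 0.0647), and it was called without NC library 3, at -0.45 (adjusted p = 6.46e-06). DUSP1, a phosphatase induced by stress and growth factors, had a log2 fold change of -0.03.

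Of 26 genes of the cascade from receptors to ERK, 24 were tested and 0 were called by edgeR, with 6 at an unadjusted p under 0.05 (25.1% of all tested genes), 2 called by DESeq2 and 0 by limma-trend. DESeq2 called 10.6% of all tested genes. The median log2 fold change of this list was -0.11, and it turned to 0.01 without NC library 3, where 7 genes fell and 6 rose, against 18.3% of all tested genes called as lower and 16.9% as higher. SOS1, which loads RAS with GTP, had the largest log2 fold change upwards, 0.45 (edgeR adjusted p = 0.105), and PTPN11, the phosphatase SHP2 that sustains RAS activation, had the lowest, -0.52 (adjusted p = 0.164). Without NC library 3 these were 0.34 and -0.26, and neither was then the extreme of the list. PDGFRA and KSR1 were below the filter. ERK1 (MAPK3) had a log2 fold change of -0.25.

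Of 15 other brakes on the pathway, all 15 were tested and 0 were called by edgeR, with 8 at an unadjusted p under 0.05 (25.1% of all tested genes), 6 called by DESeq2 (10.6%) and 2 by limma-trend on log2(FPKM + 1) (407 of the 15870 genes). The median log2 fold change was 0.34, and 11 of the 15 had higher values in each library labelled GRIK1 siRNA than in any NC library, against 19.4% of all tested genes. CIC, the capicua repressor of ETV genes, had 11.6, 9.37 and 4.35 FPKM in NC, against 13.3, 14.0 and 14.3 FPKM in the siRNA-labelled libraries. Its log2 fold change was 0.66 (edgeR adjusted p = 0.194), and 0.38 without NC library 3 (adjusted p = 0.000361). The gene with the lowest log2 fold change of the list was IL17RD, a receptor-level inhibitor, with -1.10 (edgeR adjusted p = 0.080). Without NC library 3 the list had 8 genes that rose and 2 that fell, against 16.9% and 18.3% of all tested genes. The largest rises were RASA1 with 0.53, ATXN1L with 0.50 and NF1 with 0.47, where RASA1 and NF1 encode RAS inactivators. The 2 falls were IL17RD with -0.77 and PTPN2 with -0.44. The median of the list was 0.19 in that fit.

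Of 24 other genes known as ERK targets, 23 were tested and 0 were called by edgeR. An unadjusted p under 0.05 was reached by 9 (25.1% of all tested genes, either direction), 8 lower and 1 higher. DESeq2 called 5 (10.6% of all tested genes, either direction), all lower, and limma-trend called 0. The median log2 fold change was 0.03, and it was -0.15 without NC library 3, where 11 genes fell and 2 rose, against 18.3% and 16.9% of all tested genes. MMP1, an interstitial collagenase, had the lowest log2 fold change, -1.81 (edgeR adjusted p = 0.0536), with 19.0, 20.9 and 47.2 FPKM in NC, against 9.05, 9.20 and 8.93 FPKM in the siRNA-labelled libraries, and it was at -1.16 without NC library 3. HBEGF, a ligand of EGFR, had the highest, 0.43 (adjusted p = 0.309). MMP9, below the filter, had 5, 6 and 4 counts in NC, against 13, 9 and 9 in the siRNA-labelled libraries, and was not called in the edgeR fit without a filter (log2 fold change 0.83, SE 0.56, adjusted p = 0.497).

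**Figure D4:**
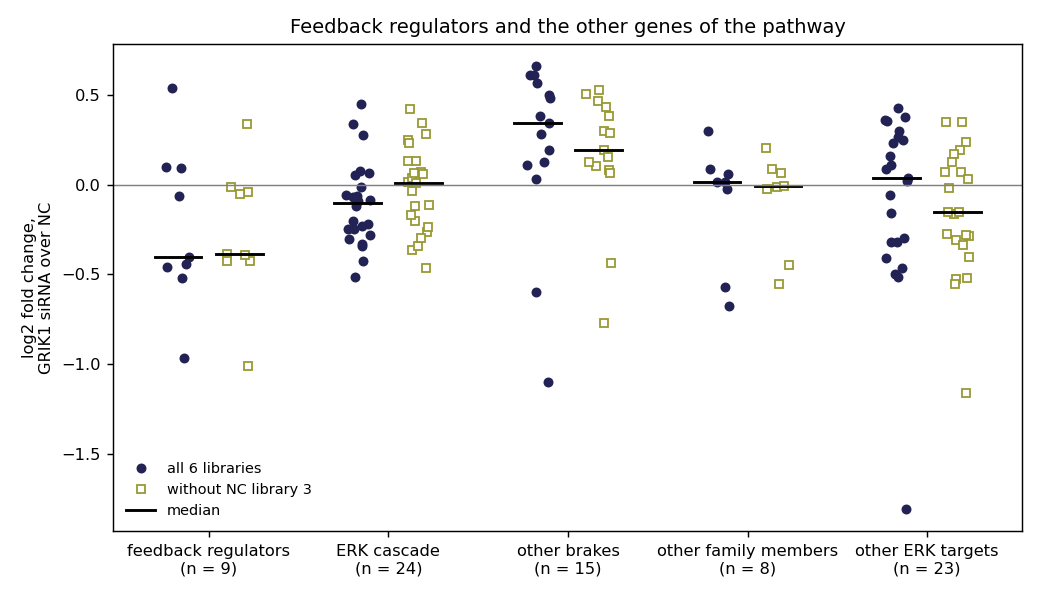
Log2 fold change of each tested gene (vertical axis) for the 9 feedback regulators and the 4 other lists, with all 6 libraries (filled circles) and without NC library 3 (open squares). Black lines are medians. The medians of the feedback regulators are -0.40 and -0.39, those of the other brakes are 0.34 and 0.19, and the median of the other ERK targets moves from 0.03 to -0.15.

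Some of the 10 genes share their position with other genes, and whether reads were counted by strand is not given in the sources used here, so these counts are uncertain. DHX8 overlaps ETV4 on the opposite strand and had 3.93, 2.91 and 2.73 FPKM in NC, against 3.94, 3.94 and 3.79 FPKM in the siRNA-labelled libraries, with a log2 fold change of 0.21 (edgeR adjusted p = 0.387). DGKG overlaps ETV5 on the same strand, with an edgeR log2 fold change of -0.03. SPRY4-AS1, antisense to SPRY4, had 11, 32 and 17 counts in NC, against 13, 23 and 20 in the siRNA-labelled libraries. AC024909.2, antisense to DUSP6, had 15 to 27 counts per library, against 850 to 1153 for DUSP6. DUSP5-DT starts 1317 bases from DUSP5 on the other strand, and had 13, 15 and 29 counts in NC, against 11, 14 and 13 in the siRNA-labelled libraries. None of these 5 neighbours was called by edgeR, and 0 of them had an unadjusted p under 0.05. The other 7 overlapping or head-to-head genes had at most 9 counts in any library.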

How the data were processed

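Total RNA of 6 U87-MG libraries was sequenced. The submitters' processing notes name cutadapt 1.9.1, HISAT2, HTSeq and GRCh38, and the strand setting is not given in the sources used here. The authors deposited whole-number read counts per gene without normalization. The authors also deposited FPKM values, which equal count over exonic size and total count (100% of values within 0.0051). A total of 0 value columns were left unassigned. The members and lists were chosen with earlier results of these data known. The libraries were compared in pairs and all differed beyond sampling noise (mean chi-square per gene at least 2.32).

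Genes that averaged 0.5 FPKM or more were kept, and their counts were scaled by TMM and tested in edgeR 4.0.16 (quasi-likelihood, R 4.3.3), without covariates and with Benjamini-Hochberg adjustment over 15870 genes. DESeq2 1.42.0, limma 3.58.1 on log2(FPKM + 1) and log2(FPKM + 0.1), other filters and scalings, a replicate block and leaving out each library were alternatives. The test was tried on simulated data. Log2 CPM used a prior count of 2. Named genes are the members, GRIK1, overlapping or head-to-head genes within 2000 bases, and from each list up to 4 called genes or the largest rise and fall. DUSP1, DUSP3, RASA1, NF1, ATXN1L, PTPN2, MAPK3 and MMP9 were added after their values were seen. A mesenchymal marker of the planned list is not reported here. Python 3.11.15, scipy 1.17.1 and matplotlib 3.10.9 were used for the remaining steps. Intervals cover counting error only.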

Additional observations from a re-analysis of the deposited data

How the results depend on the processing

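ETV4 was lower in each of the 15 alternatives, and it stayed called with no filter, a mean of at least 1 FPKM, filterByExpr, median-of-ratios scaling, library totals, DESeq2 and without NC library 3. Of the 9 tested members 1 was called, against 4 with DESeq2 (10.6% of all tested genes), 4 at an adjusted p under 0.1 (9.30%), 0 with limma-trend at either pseudocount, 0 with a log2 fold change threshold of 1, and 0 to 5 when 1 library was left out, the 5 being without NC library 3 (35.2%). ETV4 had adjusted p-values of 0.05001 and 0.0535 in limma-trend with pseudocounts of 1 and 0.1. For the other family members the 1 call became 2 without a filter, 2 with DESeq2, 2 at an adjusted p under 0.1 and 0 to 2 with 1 library left out. The cascade had 2 calls with DESeq2 and 0 to 13 with 1 library left out. The other brakes had 2 calls without a filter, IL17RD and PTPN2, both lower (1403 of 34080 genes called). They had 2 at a mean of at least 1 FPKM (533 of 13030), 1 with filterByExpr (620 of 15845) and 2 with library totals (494 of 15870), which were RASA1 and, but for filterByExpr, ATXN1L, both higher. They had 6 with DESeq2, 2 and 1 with limma-trend at pseudocounts of 1 and 0.1 (407 and 280 of 15870), 5 at an adjusted p under 0.1 and 0 to 10 with 1 library left out. The other ERK targets had 1 without a filter, 5 with DESeq2, 4 at an adjusted p under 0.1 and 0 to 13 with 1 library left out. Without NC library 3, SPRED2 turned to -0.039 and DUSP6 to -0.015, and with 1 library left out they ranged up to 0.22 and 0.15. ETV5 turned to 0.025 with library totals and to 0.021 and 0.023 with limma-trend at pseudocounts of 1 and 0.1. The cause of these changes was not tested. With the replicate number as a block, 0 members and 0 of the other family members were called, and 0 of all genes, with 3324 at an unadjusted p under 0.05. The same-numbered libraries did not deviate together (correlations of -0.07, 0.04 and -0.04), so the numbers were not taken to pair them. SPRY1, with at most 17 counts per library, is limited by depth.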
